A study of Rattus norvegicus with 16 samples.

Results

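The innervated extensor digitorum longus (EDL), which lifts the toes of the hind foot and is built mainly of fast fibres, was described from 8 of the 16 arrays of a rat denervation study. These 8 arrays were chosen by their titles as control EDL, rats 1 to 8, and carried RNA of Brown-Norway rats aged 6 months. The other 8 arrays carried EDL denervated for 2 months and were not compared here. The labels used here leave sex, limb and any sham operation unstated. Each array was taken as 1 rat, as its number in the title reads. Labelled cDNA from total RNA had been hybridised to a nylon membrane (Rat Atlas 1.2 Array II), so all cell types of the muscle contributed, and few cells of a type cannot be told apart from little RNA per cell. Of 1185 probes, 9 reference probes were left out by their IDs and 1176 were described. Of these, 1106 carried exactly 1 gene, for 1096 genes in all.

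Fast muscle fibres split ATP quickly and refill it from creatine phosphate through creatine kinase and from glycogen through glycolysis, while mitochondria carry sustained work. Contraction starts when the voltage sensor of the membrane, the calcium channel subunit encoded by Cacna1s, opens calcium stores and thin-filament proteins such as tropomyosin let myosin bind actin. Between the fibres lie fibroblasts with their collagen-binding proteoglycans, vessels, nerve branches with Schwann cells, and resident immune cells.

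Each probe was given a percentile within its own array, where 100 is the brightest probe and the median probe lies near 50, and the percentiles were averaged over the 8 arrays. Errors are SD over the 8 arrays. A percentile is the place of a probe's signal and not an amount of transcript, because the length, labelling and binding of each probe enter it, and such probes can also bind transcripts of related genes. The lowest value of each array was shared by 82 to 206 probes, or 6.97% to 17.5% of them, and this value is termed the floor. A probe at the floor has only an upper bound and no order among the others there. Array means lay between 8.19 and 8.27 log units on 7 arrays and at 6.63 on the array of rat 6, and percentiles remove such a shift of a whole array.

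The muscle genes Ckm, Pgam2 and Cacna1s were all among the 30 highest probes. Their upstream sequences are shown because the E-box, the CANNTG motif bound by myogenic factors such as the products of Myod1 and Myog, occurs in each. The sequences are the 250 bases before the annotated start in RefSeq, build GRCr8, 5′ to 3′ on the gene's strand, with E-boxes in capitals. Ckm (muscle creatine kinase) lies on the plus strand at chr1:88189211-88189460, Pgam2 (muscle phosphoglycerate mutase) on the minus strand at chr14:84897875-84898124, and Cacna1s on the plus strand at chr13:50045418-50045667.
Ckm: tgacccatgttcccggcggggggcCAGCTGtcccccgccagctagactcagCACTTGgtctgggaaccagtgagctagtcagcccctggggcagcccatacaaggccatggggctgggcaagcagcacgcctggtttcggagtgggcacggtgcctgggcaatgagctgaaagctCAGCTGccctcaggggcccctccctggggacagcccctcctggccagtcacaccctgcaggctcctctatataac
Pgam2: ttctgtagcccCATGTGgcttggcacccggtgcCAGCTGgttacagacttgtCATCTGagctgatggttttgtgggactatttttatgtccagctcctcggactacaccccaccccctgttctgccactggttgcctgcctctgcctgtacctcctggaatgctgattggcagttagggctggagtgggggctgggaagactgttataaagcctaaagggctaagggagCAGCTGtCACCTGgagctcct
Cacna1s: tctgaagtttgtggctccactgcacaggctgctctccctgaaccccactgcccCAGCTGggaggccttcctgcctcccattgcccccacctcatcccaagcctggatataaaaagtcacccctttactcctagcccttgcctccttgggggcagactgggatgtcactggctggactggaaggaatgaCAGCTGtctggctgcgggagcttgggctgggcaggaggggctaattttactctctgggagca
The Ckm window held 3 E-boxes, that of Pgam2 5 and that of Cacna1s 2, and each window held 2 of the form CAGCTG. The windows of Pgam2 and Cacna1s also held TATAAA, searched on both strands. Of the genes of the 30 highest probes, 24 had a promoter in the table. CANNTG, which includes CAGCTG and reads as the same motif on both strands, was present in 14 of these 24, against 65.5% of all 33469 promoters of that length. CAGCTG was present in 5, namely Myh6, Ckm, Pgam2, Tpm3 and Cacna1s, against 11.97% of all. TATAAA was present in 4, Pgam2, Selenow, Ampd1 and Cacna1s, against 12.9% of all. A match is a run of letters and not a site in use.

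The brightest probe was that of Myh6 on the arrays of rats 2, 3, 4, 6 and 8, and that of Ckm on those of rats 1, 5 and 7. Myh6 encodes the alpha heavy chain of cardiac myosin. Its values on rats 1 to 8 were 13.53, 14.63, 13.67, 13.24, 12.31, 11.94, 11.78 and 12.38 log units, which placed it at a mean percentile of 99.9 ± 0.205 (SD, n = 8). The adult fast myosins Myh1, Myh2 and Myh4 and the slow myosin Myh7 were not analysed here, and which myosin transcripts this probe captured was not tested. Ckm read 16.95, 14.54, 11.09, 13.02, 12.40, 11.76, 12.04 and 12.31 log units, a mean percentile of 99.6 ± 0.856. Its array of rat 3 lay apart at percentile 97.5, while the other 7 lay between 99.9 and 100.

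By mean percentile Dlx5 lay between Myh6 and Ckm, at 99.8, and after Ckm followed Ybx3, Tpt1, Ybx1, Tpm2, Cox6c, Pkm and Pgam2, at 99.1 to 99.6. Ybx1 and Ybx3 encode Y-box proteins that bind RNA, and Tpt1 the translationally controlled tumour protein. Tpt1 ran from percentile 99.5 to 99.7 with a median of 99.6, and Ybx1 from 99.3 to 99.7 with a median of 99.4. Tpm2, the beta tropomyosin of the thin filament, read 98.4 on rat 1 and 99.4 to 99.7 on the others. Cox6c, a subunit of cytochrome c oxidase, lay between 99.3 and 99.4 on every array, while its values ran from 10.20 to 13.37 log units, with an SD of 1.01 after centring each array. Pkm, the muscle form of pyruvate kinase, ranged from 98.9 to 99.5 around a median of 99.2. Pgam2 lay between 99.6 and 99.8 on 7 arrays and at 95.2 on rat 3.

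**Figure D1:**
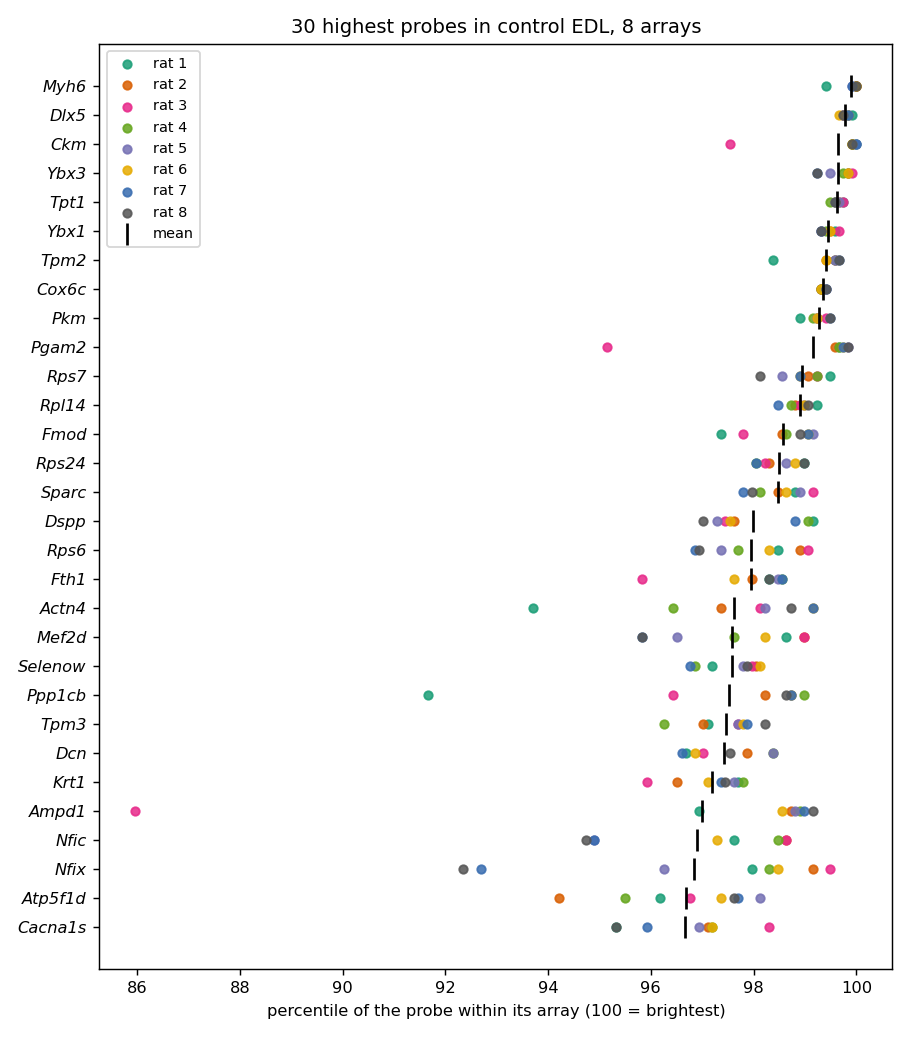
Each point is the percentile of 1 of the 30 highest probes (rows) within the array of 1 rat (colours), on a linear axis that does not start at 0, and black ticks mark means over the 8 arrays. Of the 30 rows, 24 keep all their points among the 5% brightest probes, and the point farthest to the left is Ampd1 on rat 3, at 86.0.

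The remaining probes of the 30 highest fell into a few roles. Ribosomal proteins, 17 of the 1096 genes, gave 4 of the 30, Rps7, Rpl14, Rps24 and Rps6. The extracellular matrix and fibroblast list held 9 of the 1096 genes. Matrix genes gave Fmod (fibromodulin), Sparc (osteonectin) and Dcn (decorin), at mean percentiles of 98.6 ± 0.655, 98.5 ± 0.482 and 97.4 ± 0.734. Transcription factors gave Mef2d, a partner of the myogenic factors, at 97.6 ± 1.35, and Nfic and Nfix of the nuclear factor I family at 96.9 ± 1.77 and 96.8 ± 2.83. Ampd1, the muscle AMP deaminase, was at 97.0 ± 4.51, with 86.0 on rat 3 and 96.9 to 99.1 on the others. The last of the 30, Cacna1s, had a mean percentile of 96.7, and the next probe, Rpl15, had 96.5.

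Some of the highest probes carried genes known from other tissues. Dlx5, a homeobox gene of the developing skeleton, lay between 99.7 and 99.9 on all 8 arrays. Dspp, a matrix protein of dentine, lay between 97.0 and 99.1, and Krt1, a keratin of the epidermis, between 95.9 and 97.8. Named after their values were seen, Klrc1 (a receptor of natural killer cells), Shox2 (a homeobox gene) and Clec10a (a macrophage lectin) had mean percentiles of 95.4 ± 2.31, 94.5 ± 1.76 and 93.3 ± 1.31. Dspp had a second probe, at 50.2 ± 20.8, between 26.3 and 83.5. The first Dspp probe was above the second on 8 of 8 arrays, and their ranges did not overlap.

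Dspp was 1 of 10 genes with 2 probes, and these pairs measure how far the probe itself sets a place. The mean percentiles of the paired probes differed by 5.14 to 47.8 points, with a median of 19.4. Dspp had the widest gap, followed by Pam, a peptide-amidating enzyme, at 52.1 ± 32.3 and 7.07 ± 4.34. The probes of Rpsa, a ribosomal protein, were at 80.5 ± 4.61 and 60.01 ± 19.98, with the first above the second on 7 of 8 arrays. In a two-sided exact permutation test that turns the sign of the difference on each array, 4 of 10 pairs had an unadjusted p under 0.05 and 0 after Benjamini-Hochberg adjustment over the 10. The smallest p that 8 arrays allow is 0.0078, which Dspp reached (adjusted p = 0.0781 in that exact test). These p-values measure only the spread between these 8 arrays. Places of different genes are accordingly not read as an order of their transcripts.

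The order near the top was itself not fixed. Of the 30 highest probes, 24 were among the 5% brightest on all 8 arrays, and 25 probes in all met that mark, against 110 that met it on at least 1 array. Of the 29 neighbouring pairs among the 30, 1 kept its order on all 8 arrays, Tpt1 above Ybx1, and 5 kept it on at least 7. Over all probes, 87 lay above percentile 75 on every array and 652 on at least 1, while 21 lay at or below percentile 25 on every array.

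The gene lists are described next, with a gene of several probes taken at its brighter one. A mean percentile of 75 or more is called high. Of all 1176 probes, 198 were high, or 16.8%, and the median of mean percentiles was 48.5. The floor was reached on at least 1 array by 479 probes (40.7%) and on at least 4 arrays by 80 (6.80%). List counts are read against these shares, with no test.

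Of the fast contractile and calcium-handling genes, 4 were measured and 3 were high, with a median of 96.6. Besides Ckm and Cacna1s, Mylk2, the skeletal muscle myosin light chain kinase, ran from 92.2 to 98.2 with a median of 96.8. Cacna1s itself ran from 95.3 to 98.3 around 97.0, with no array apart. Tpm1, the alpha tropomyosin, was the exception, at the floor on 5 arrays and at most at percentile 18.5. Of 7 slow, cardiac and developmental contractile genes, 2 were high, Myh6 and the slow tropomyosin Tpm3, which ran from 96.3 to 98.2. The list's median was 50.8. Pln (phospholamban, a brake on the slow and cardiac calcium pump) was mid-range at 60.01 ± 12.3. Tnnt2 (cardiac troponin T) was at the floor on 4 arrays and never above 21.9, and Myh3 (embryonic myosin heavy chain) was at the floor on 7 and never above 10.0. The tropomyosin probes lay at opposite ends of the profile, Tpm2 and Tpm3 never below 96.3 and Tpm1 never above 18.5.

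Of the defining markers listed for muscle fibres, Ckm, Cacna1s and Myog were measured and all 3 were high. None of the defining markers listed for slow fibres, endothelium and smooth muscle, blood or liver was among the measured genes. Other genes of slow fibres were, such as Tpm3 and Pln above, and genes of vessels and liver follow below.

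Glycolysis and glycogen genes were high in 7 of 11 cases, with a median of 84.9 and none at the floor. Besides Pkm and Pgam2, Pgm1 (phosphoglucomutase) had a median of 97.4, with 87.2 on rat 3 and 96.3 to 98.2 on the others. Of the forms known from liver, Pygl (liver glycogen phosphorylase, named after its values were seen) was high at 84.9 ± 9.32, with its second probe at 60.2 ± 34.1. Pfkl (liver phosphofructokinase) was at 53.1 ± 16.8 and Pklr (liver and red cell pyruvate kinase) at 42.4 ± 16.3. Pklr ran from 18.2 to 67.7.

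Oxidative phosphorylation and TCA cycle genes were high in 5 of 7 cases, with a median of 92.3. Atp5f1d, a subunit of ATP synthase, ran from 94.2 to 98.1, and Ndufa5, a subunit of complex I, from 83.2 on rat 3 to 97.1 on rat 4. Ndufv2, another complex I subunit, spread from the floor on rat 1 to 94.5 on rat 8. Cox8a, the oxidase subunit of the liver type, was at the floor on 6 arrays, at 32.9 on rat 4 and at 77.3 on rat 3. Fatty acid and ketone oxidation genes were high in 2 of 6 cases, with a median of 70.4. Acat1, the mitochondrial thiolase, lay between 94.9 and 98.4, and Hadhb, the beta subunit of the trifunctional protein, between 68.5 and 95.6. The alpha subunit of that protein, Hadha, was wider and lower, from 8.33 on rat 7 to 74.9 on rat 4. Decr1, which handles unsaturated fatty acids, lay between 9.61 and 54.5.

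Ribosomal protein genes were high in 16 of 17 cases, with a median of 93.5. Rps7 ran from 98.1 to 99.5 and Rpl14 from 98.5 to 99.2. Rps14 was the lowest of the high ones, at 38.3 on rat 4 and 70.0 to 90.6 on the others. Rpl10a, at 45.6 ± 27.7, was at the floor on 2 arrays. Translation factor genes were high in 3 of 8 cases, with a median of 45.3. The elongation factor Eef1a1 had a median of 90.9, while the other high members were Eif2ak1, a kinase that inhibits initiation, and Eif4ebp1, a binding protein that does so too. Neither was steady. Eif4ebp1 lay between 93.0 and 95.2 on rats 1 to 4 and between 33.2 and 79.4 on rats 5 to 8. Eif2ak1 split the other way, between 67.0 and 92.7 on rats 1 to 4 and between 97.7 and 99.1 on rats 5 to 8. The subunits of the exchange factor eIF2B were lower, with Eif2b4 at 23.9 and Eif2b2 at 10.0, the latter at the floor on 6 arrays. Of 3 proteasome and ubiquitin genes none was high, with a median of 42.7. Psmd1, of the proteasome cap, was at the floor on rat 1 and between 44.7 and 80.3 on the others.

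Antioxidant, iron and selenoprotein genes were high in 4 of 6 cases, with a median of 86.7. Fth1 (ferritin heavy chain) was at 95.8 on rat 3 and 97.6 to 98.6 on the others, Selenow lay between 96.8 and 98.1, and Selenop, which carries selenium in plasma, between 91.5 and 97.6. The peroxiredoxin gene Prdx6 was wider, from 35.2 on rat 7 to 89.3 on rat 5. Lysosome, calpain and autophagy genes were high in 3 of 5 cases, with a median of 78.7. They included Capns1, the small calpain subunit, with a median of 97.3, and the muscle calpain Capn3, at 61.1 on rat 5 and 80.0 to 89.8 on the others.

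Of 7 myogenic regulators 3 were high, with a median of 67.8. Myf6 (Mrf4), the factor most known from adult fibres, had a median of 84.4 with 61.1 on rat 5, and Myog (myogenin) ran from 64.7 to 87.8 around 76.6. Mef2d was the highest, from 95.8 to 99.0. Runx1 was at the floor on 3 arrays and reached 59.4 on rat 5. Tcf12, an E-protein partner of the myogenic factors, spread from 17.9 to 88.9. None of these except Runx1 was ever at the floor.

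Of 7 organisers of the neuromuscular junction none was high, with a median of 57.2 and none at the floor. Lamb2, the synaptic laminin chain, was between 82.1 and 85.3 on rats 1 to 4 and between 48.6 and 71.9 on rats 5 to 8. Nes (nestin) had a median of 72.4 and Ncam1 of 61.2. Dmd (dystrophin) lay between 12.8 and 23.7 on 6 arrays and at 67.3 and 67.9 on rats 7 and 8. Its relative Utrn (utrophin) lay between 14.9 and 67.8. Receptor genes of the junction are not analysed here.

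Of the 3 insulin, IGF and hormone signalling genes 1 was high, with a median of 65.4. This was Grb14, an inhibitor of the insulin receptor, at 64.6 on rat 1 and 83.8 to 97.4 on the others. Of 5 muscle kinase and phosphatase genes 2 were high, with a median of 56.7. Ppp1cb, a catalytic subunit of protein phosphatase 1, had a median of 98.7, and the probes of its relatives Ppp1ca and Ppp1cc had medians of 55.4 and 42.4. Of 21 ion pump and channel genes 3 were high, with a median of 39.2. Apart from Cacna1s these were the potassium channel genes Kcnh3 and Kcnn3, with medians of 77.7 and 84.1, while the glial potassium channel Kcnj10 was at the floor on 4 arrays.

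**Figure D2:**
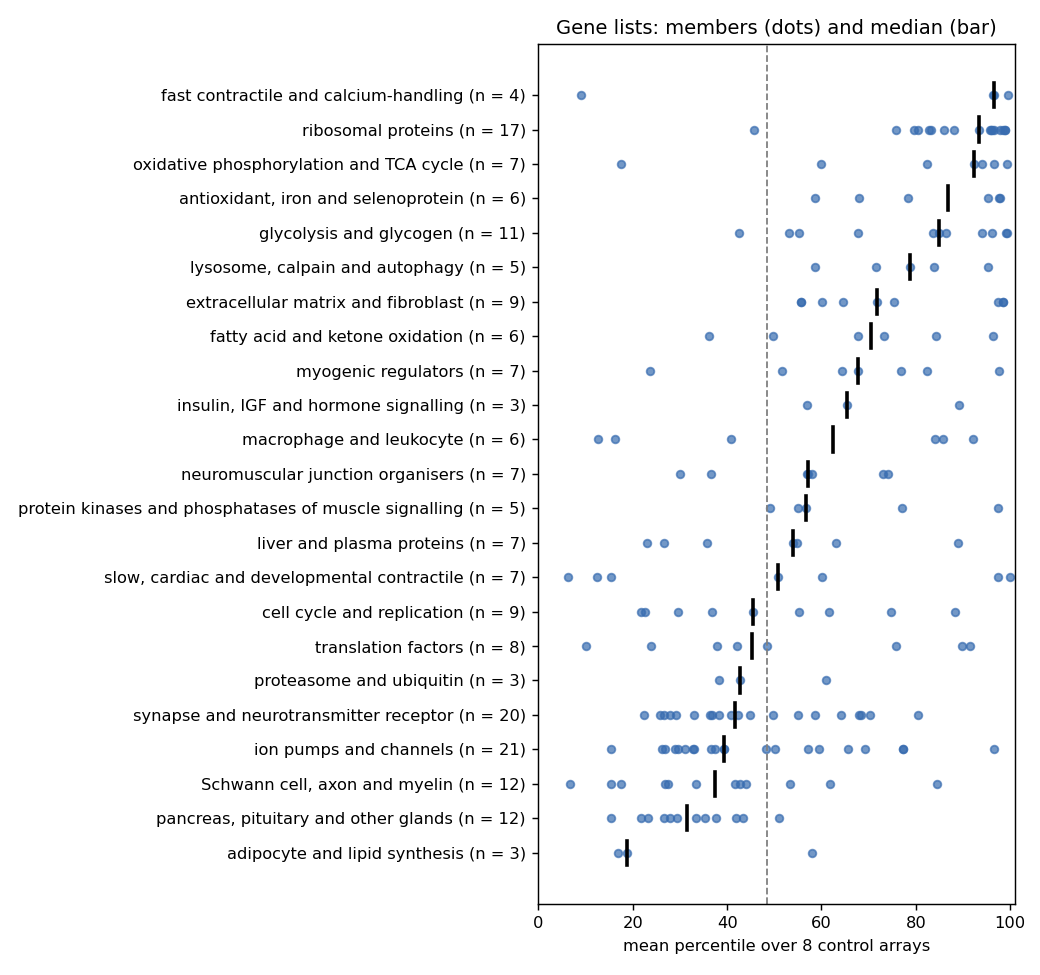
Each point is the mean percentile over 8 arrays of 1 measured gene, in rows by gene list, with the list's median marked. Ribosomal, oxidative and fast contractile genes have the highest medians, 93.5, 92.3 and 96.6, with their lowest members at 45.6, 17.5 and 9.09. Gland and Schwann cell genes centre at 31.4 and 37.5.

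Genes of cells other than fibres were also measured. Of 9 extracellular matrix and fibroblast genes 4 were high, with a median of 71.7. Among the fibroblast markers Dcn was high, while Bgn (biglycan) had a mean percentile of 55.8 and lay between 25.2 and 76.5. Of 6 macrophage and leukocyte genes 3 were high, with a median of 62.4. C1qb, a complement chain made by macrophages, ran from 87.4 to 95.9, and Fcer1a, a chain of the IgE receptor, from 78.0 to 93.1. Cd48 was lower, with a mean percentile of 40.7 and a range from 9.18 to 73.4, and Cxcl1 was at the floor on 4 arrays. The T-cell genes did not lie together, with Cd8a between 64.6 and 94.3 and Cd3d at the floor on 4 arrays and never above 24.8. Of 12 Schwann cell, axon and myelin genes 1 was high, Map1b, between 79.2 and 90.7. The list's median was 37.5, and 7 of the 12 touched the floor, among them Gfap on 7 arrays. Prph (peripherin), a filament of peripheral neurons, was at the floor on 3 arrays and never above 29.8. Mapt, Nefm, Prx, Nefh and Nefl were mid-range, at mean percentiles of 61.8, 53.3, 44.0, 42.8 and 41.7. Cnp, S100b, Map2 and Sox10 were lower, at 33.4, 27.4, 26.9 and 17.5. Prx, Nefl, Cnp, Map2 and Sox10 were each at the floor on 1 array.

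Of 20 synapse and neurotransmitter receptor genes 1 was high, with a median of 41.6. It was Rab3ip, a partner of the vesicle protein Rab3, between 46.9 and 94.8. The glycine transporter Slc6a5 was the lowest of that list, at 22.4. Of 9 genes listed under cell cycle and replication 1 was high, with a median of 45.5, and this was Cdc42bpa, a kinase of the cytoskeleton. The list also held other genes of different roles, such as Cdc123, a factor in the assembly of eIF2. Its count and median therefore do not describe the cell cycle alone. Its members Rb1, Mcm6, Plk1 and Smc3 had mean percentiles of 61.5, 45.5, 36.8 and 22.5, and none was high. Of 2 endothelial and smooth muscle genes none was high, with Tagln between 32.8 and 92.3 and Myh11 at the floor on 5 arrays. Of 3 adipocyte and lipid synthesis genes none was high, and their median was 18.8, with Scd at the floor on 5 arrays and at 64.5 on its highest.

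Of 7 liver and plasma protein genes 1 was high, with a median of 53.9. This was Ahsg (fetuin A), between 84.5 and 92.8 on all arrays, while Afp was at the floor on 3. Of 12 genes of the pancreas, pituitary and other glands none was high, with a median of 31.4, and 8 touched the floor. Iapp and Amy2a3, a pancreatic hormone and a pancreatic amylase, were each at the floor on 4 arrays. No chaperone or blood gene of the lists was measured.

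At the floor, 697 probes (59.3%) were never found, 236 were found on 1 array, 120 on 2 arrays and 43 on 3. At the other end, 5 probes were at the floor on all 8 arrays, those of Serinc5, Shank2, Ctbs, Macroh2a1 and Lipf, named after their values were seen. Without the array of rat 7 they were 8. Lipf is the gastric lipase, Shank2 a scaffold of excitatory synapses, Ctbs a lysosomal chitobiase and Macroh2a1 a variant histone of wide expression. A further 9 were there on 7 arrays, including Gfap, Myh3, the liver factors Foxa1 and Foxa2, and the plasma pentraxin Apcs. Since Macroh2a1 and Tpm1 also lay there, a floor value is read only as a bound and not as an absent transcript. The floor values themselves ran from 3.27 on rat 6 to 6.69 on rat 3.

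**Figure D3:**
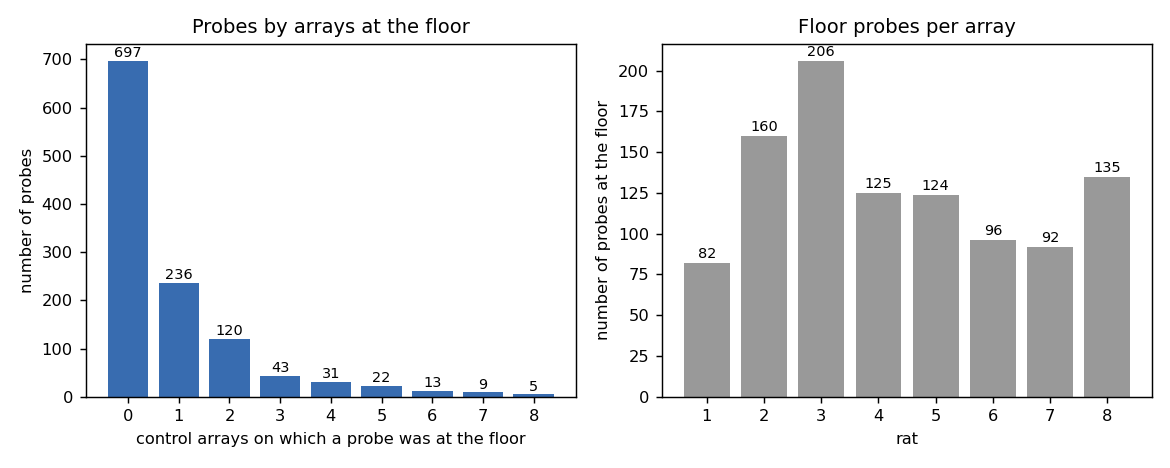
Left, the number of probes (vertical axis) by the number of control arrays on which they were at the floor; right, the number of floor probes on the array of each rat. Most probes, 697, were never at the floor and 5 always were, while rat 3 had the most floor probes, 206, and rat 1 the fewest, 82.

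How far the rats differed was measured by the SD of a probe's percentile over the 8 arrays, among the 697 probes never at the floor. The median SD was 15.4 points and the range 0.0440 to 36.5. It had a median of 10.7 for the 5 probes with mean percentiles up to 25, 17.7 from 25 to 50, 17.5 from 50 to 75, 9.49 from 75 to 90 and 1.95 above 90. In log units after centring each array the medians in these bands were 0.95, 0.78, 0.72, 0.65 and 0.84, so the small SD of percentiles at the top, where they are capped at 100, was not matched on that scale.

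The arrays themselves were similar to unequal degrees. Spearman's rho over the probes ran from 0.473 to 0.813 over 28 pairs, with a median of 0.579. The 6 pairs among rats 1 to 4 had a median of 0.743, the 6 pairs among rats 5 to 8 one of 0.578, and the 16 pairs between these sets one of 0.532. Rat 6 did not follow this division, since its rho with rats 1 to 4, from 0.647 to 0.705, was above its rho with rats 5, 7 and 8, from 0.573 to 0.630. The labels name no batch, and the 2 sets of rats were chosen after these correlations were seen. At most 0.0850% of values were identical in any pair, so no pair of arrays held the same values. All 4 arrays of rats 1 to 4 were above all 4 of rats 5 to 8 for 56 of the 697 probes (8.03%), and the reverse held for 37 (5.31%).

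**Figure D4:**
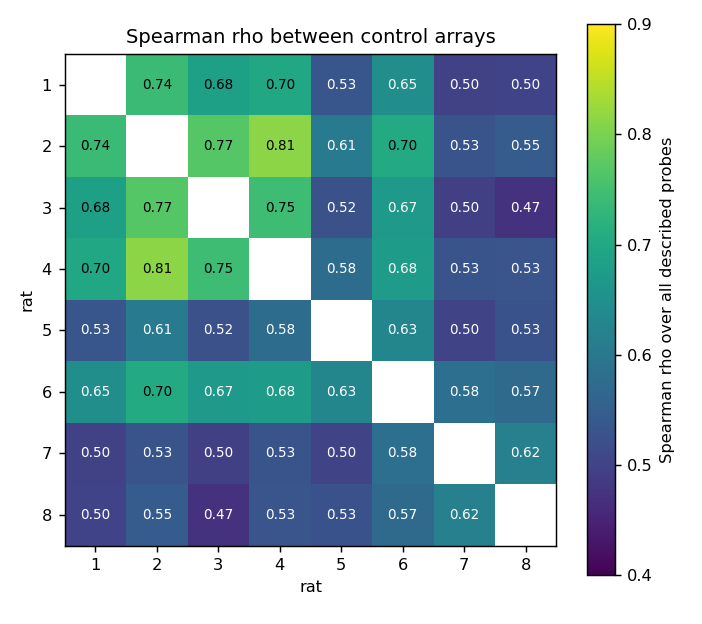
Each cell gives Spearman's rho between the percentiles of a pair of control arrays over 1176 probes, with rats 1 to 8 on both axes and the colour scale giving rho. The pairs among rats 1 to 4, from 0.684 to 0.813, stand above most pairs with rats 5 to 8.

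Of the 12 probes with the largest SD, 6 had all of rats 5 to 8 above all of rats 1 to 4 and 0 the reverse. They were chosen by spread, so no share is read from this, and without the array of rat 7 the 12 with the largest SD kept 7 of these. Gtf3c1, a subunit of the polymerase III factor TFIIIC, had the largest SD, at 36.5. It was at percentiles 27.4, 36.9, 37.5 and 12.2 on rats 1 to 4 and at 96.4, 96.3, 95.7 and 92.5 on rats 5 to 8. Klrc2, a receptor of natural killer cells, stood at 26.2 to 75.4 on rats 1 to 4 and at 95.7 to 97.9 on rats 5 to 8. Jag1, a Notch ligand, Akr1c14, a steroid dehydrogenase, Tfec, a transcription factor, and C4bpa, a complement inhibitor, split the same way.

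The others of the 12 did not split by those sets. Nog, the BMP antagonist noggin, lay between 72.7 and 88.1 on rats 1 to 4, at 45.9 and 76.4 on rats 5 and 6 and at 11.6 and 18.8 on rats 7 and 8. Uso1, a Golgi tether, was at 9.69 on rat 7 and 80.8 to 91.0 on the rest, and Gosr2, another Golgi protein, was also lowest on rat 7, at 14.5. Nfe2l2, the antioxidant regulator Nrf2, was at 9.86 and 9.10 on rats 1 and 7 and between 46.7 and 76.3 on the others. Vamp1, a vesicle fusion protein, and Tkt, transketolase, spread over 15.1 to 94.5 and 11.1 to 87.7. Whether these splits come from the animals or from the membranes was not tested.

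**Figure D5:**
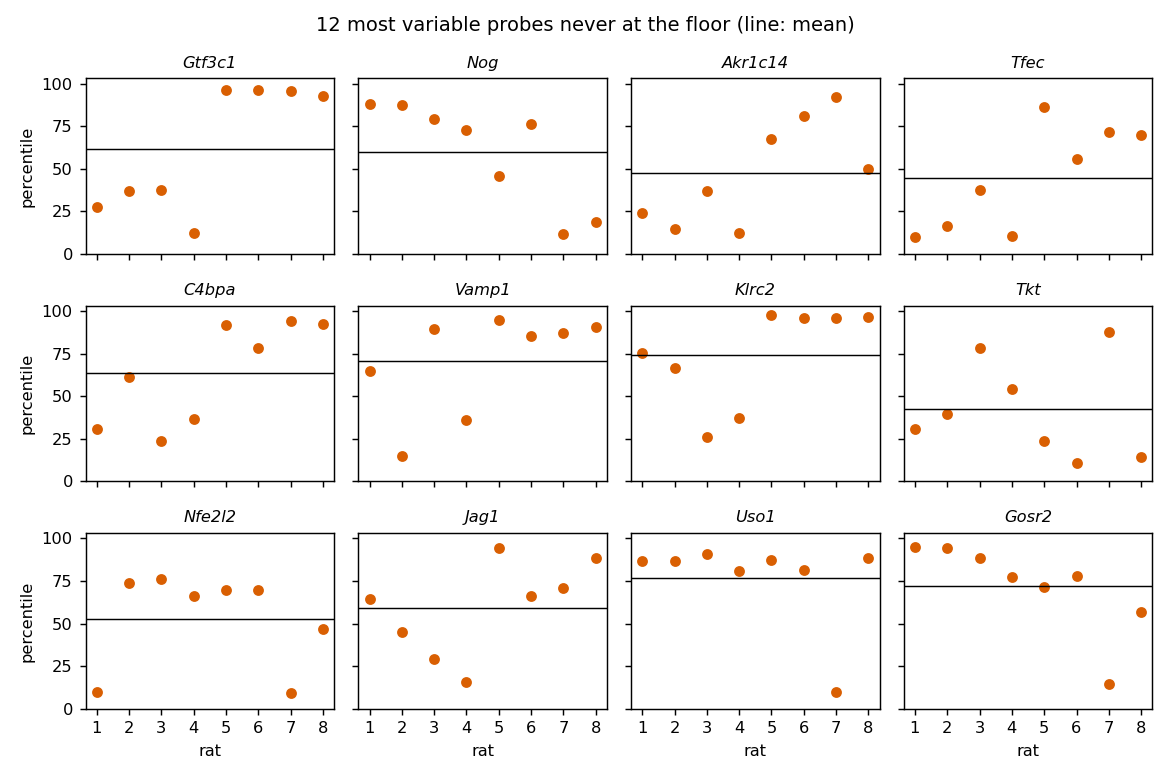
Each panel shows 1 of the 12 most variable probes never at the floor, with its percentile (vertical axis, 100 is brightest) on the array of each rat (horizontal axis) and its mean as a line. Gtf3c1 is at most 37.5 on rats 1 to 4 and at least 92.5 on rats 5 to 8, while Uso1 is low on rat 7 alone.

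In the middle of the profile, from 25 to 75, the steadiest probes were Cdc123, Tgm1, Uhmk1, Sult1c3, Avp and Kalrn. Cdc123, a factor in the assembly of eIF2, was at 74.8 ± 5.51, and Tgm1, the keratinocyte transglutaminase, at 33.7 ± 6.85. Cdc123 ran from 63.9 to 82.5 and Kalrn, a guanine exchange factor, from 47.3 to 71.0.

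The array of rat 3 was low for several muscle energy genes. It was the lowest of the 8 arrays for 5 of the 11 glycolysis genes, for 2 of the 3 fast contractile genes never at the floor and for 2 of the 5 such oxidative genes, against 66 of all 697 probes (9.47%). On the other arrays that share ran from 5.31% to 17.9%. Rat 3 and these lists were picked after the values were seen, and other arrays were often lowest for other lists. Among genes never at the floor, rat 8 was lowest for 6 of 16 ribosomal genes and rat 5 for 5 of 12 synapse genes. Rat 7 was lowest for 3 of 6 antioxidant, iron and selenoprotein genes. Ckm, Pgam2, Pgm1, Ampd1, Mylk2 and Ndufa5 were all lowest on the array of rat 3. The same array was not low for all muscle genes, since Cacna1s was at its highest there, 98.3, and Tpm2 read 99.6. Rat 3 also had the highest floor and the most floor probes, and their part in these values was not tested.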

How the data were processed

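Per the labels, labelled cDNA of the control muscles was hybridised to membranes that were read with a phosphorimager and Array Vision, and a linear regression normalised the data. The values deposited by the authors are a score whose range shows a log scale. Its base, any background correction and the source of the floor values are unstated in the labels used here, so differences are in log units and no folds are printed. The number of arrays limits the precision.

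Gene names came from the platform annotation, in which 1106 probes had 1 gene, 2 several and 68 none. Of the 1106 probes, 1099 were matched by ID and 5 by symbol to RefSeq of assembly GRCr8, and 2 kept the annotation's name. Percentiles are average ranks within an array. Python 3.11.15, pandas 2.3.3, numpy 2.4.6, scipy 1.17.1 and matplotlib 3.10.9 were used. The ranking code was run on simulated data with independent noise and floors set at random. That run does not cover sets of similar arrays such as those seen here.

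Genes named in the text were the 30 with the highest mean percentile, in each of 26 lists the 3 highest and 2 lowest measured members, the 12 with the largest SD among probes never at the floor and the 6 with the smallest SD between percentiles 25 and 75. Any other gene, such as Rpl15, Foxa1 or Apcs, was named after its values were seen. The members and lists were chosen with earlier results of these data known. Alternatives were other averages, centring, quantile normalisation, floor rules and left-out arrays.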

Additional observations from a re-analysis of the deposited data

Results flagged for a closer look

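Among 167 values examined (137 genes, list medians and array summaries), 28 (16.8%) had 1 array far from the other 7, by Dixon's test. Chance flags about 1 in 20 groups of even spread, but many percentiles here are squeezed against 100 or the floor and genes were named in part for high place or large SD. The same test marked 140 of all 1176 probes (11.9%) and 84 of the 697 never at the floor (12.1%), against 23 of the 137 named genes (16.8%). Of these 23, 9 concerned rat 3, 5 rat 1, 5 rat 5, 2 rat 7, 1 rat 4 and 1 rat 6. Of the 140 over all probes, 34 concerned rat 8, 29 rat 7, 23 rat 5, 22 rat 1 and 19 rat 3. Rats 6, 4 and 2 had 8, 4 and 1 of them. Of the 84 never at the floor, 18 concerned rat 7, 17 rat 1, 16 rat 3, 15 rat 8 and 12 rat 5. The counts by rat thus differ with the genes chosen.

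The array of rat 6 stood apart in its mean of 6.63, its median of 6.98 and its floor of 3.27 log units, and in the percentile of Thra, 27.5. On rat 3 the low percentiles were those of Ckm (97.5), Pgam2 (95.2), Fth1 (95.8), Ampd1 (86.0), Mylk2 (92.2), Pgm1 (87.2), Ndufa5 (83.2) and Eif2ak1 (67.0), and that of Cox8a was high (77.3). The median of the oxidative phosphorylation and TCA cycle list was also low there, at 77.3 against 91.5 to 95.7 on the other arrays.

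On rat 1 the percentiles of Myh6 (99.4), Tpm2 (98.4), Ppp1cb (91.7), Grb14 (64.6) and Psmd1 (3.53) were low. On rat 5 those of Capn3 (61.1), Myf6 (61.1) and Tagln (32.8) were low and those of Eif2b4 (60.8) and Eif2b2 (34.4) high. On rat 4 Rps14 was low (38.3). On rat 7 Lamp1 (45.3), Uso1 (9.69) and the median of the antioxidant, iron and selenoprotein list (72.2 against 84.4 to 92.5) were low. The causes were not tested.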

How the results depend on the processing

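No paired analysis was possible because only control arrays were described and no comparison between groups was made. Of 416 alternative values of the counts and list medians, 388 stayed within 1 SD between arrays (between probes for the median SD), or 1.5 times for counts, of the value given and 28 moved beyond it. Many of the 416 came from leaving out 1 array, which keeps all the others and so holds a list median near its value. The share kept is thus no measure of stability. Of 1918 mean percentiles of single genes, 1897 stayed within 1 SD between arrays, a wide bound for variable genes. A mean without 1 array, or over rats 1 to 4 or rats 5 to 8 alone, cannot leave this bound by arithmetic. The 274 of 274 values kept with those sets of rats, and those with 1 array left out, are thus no test of stability. All 21 values that moved came from the other alternatives. With rats 1 to 4 and rats 5 to 8 alone, within that bound, Gtf3c1 was at 28.5 and 95.3, Prkag1 at 83.5 and 26.7, and Apob at 36.1 and 90.1. With the median of ranks, the list medians became 76.6 for myogenic regulators and 75.6 for kinases and phosphatases. With values centred on the array median they became 79.2 for myogenic regulators, 65.1 for junction organisers, 80.0 for matrix and 86.4 for lysosome genes. After quantile normalisation they became 89.9 for glycolysis, 95.1 for ribosomal, 79.8 for matrix and 85.8 for lysosome genes. With rats 1 to 4 alone, chosen after seeing the data, 25 probes were at the floor on all arrays, 2 of the 12 most variable genes remained, the median rho was 0.743, and the medians were 79.7 for myogenic, 64.6 for junction, 47.6 for synapse and 74.7 for kinase genes. With rats 5 to 8 alone, also chosen after seeing the data, 10 probes were at the floor on all arrays, 2 of the 12 remained, and the medians were 90.1 for glycolysis, 95.05 for ribosomal, 26.7 for Schwann cell and 33.0 for liver genes. Of the 12 most variable genes, 5 remained by the SD of centred values, 5 by the median absolute deviation and 4 when probes at the floor on at most 1 array were let in. Leaving out each array in turn kept 27 to 30 of the 30 highest and 7 to 11 of the 12 most variable genes, with 5 to 8 probes always at the floor. Beyond the construction of each alternative, the cause was not tested. The identity of the most variable genes is thus the least settled description, and the floor sets a lower limit that differs between arrays.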
